A study of Rattus norvegicus with 26 samples.

Results

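Interferons switch on a shared set of genes in most cell types. Here 44 genes of the interferon response and of antigen presentation were followed, among them receptors and factors that act upstream of the induced genes. The setting was the differentiation of rat multipotent adult progenitor cells (rMAPCs) to smooth muscle cells (SMCs). The 44 genes comprise the interferon-induced subunits of the proteasome and its activator, the transport and loading of peptides for MHC class I, a class II chain, receptors and feedback regulators, transcription factors, RNA sensors and antiviral effectors. They were listed by name with earlier results of these data known, and the probe of each gene was chosen by its mean log2 level over all 26 arrays, the brightest of the probes that carry its name. Of the 44 genes, 42 had a probe among 41012 gene probes, and *Irf8* and *Isg15* had none under these names. Tests were run on probes that the scanner software placed well above background throughout at least 1 group of arrays, which held for 24442 probes and for 37 of the 42 genes. *Irf2*, *Mx1*, *Ifit1*, *Ifit3* and *Ifih1* did not reach this level.

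The cells were Oct4-expressing rMAPC lines from the bone marrow of female Fischer rats 3 weeks old, and each line, Cl19 and 3c3, was 1 clone. Each line was harvested before (d0) and after 2, 4 and 6 days (d2, d4, d6) in basal rMAPC medium containing PDGF-BB and TGFβ1, and 3 arrays were made for each day of each line. Commercial primary SMC RNA was hybridized to 2 arrays as a positive control, and the sources differ on its origin, since the labels describe rat aortic RNA from Tebu Bio whereas the methods of the study name Cell Applications. The supplementary methods call the 3 arrays of a day biological replicates without describing the cultures, and p-values here measure the spread between these arrays. Levels are given as log2 of the quantile-normalized Cy3 intensity, so that 1 unit is a 2-fold difference on an array, and they compare the same probe between arrays, not different genes.

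Type I interferons signal through *Ifnar1* and its partner chain, and type II interferon through *Ifngr1* and its partner, to STAT and IRF transcription factors. Complexes that hold STAT2 and IRF9 bind the interferon-stimulated response element (ISRE) in promoters, and the gamma-activated site (GAS) is a second element of interferon-induced promoters. The induced proteins include the catalytic subunits PSMB8, PSMB9 and PSMB10, which take the place of the constitutive ones in the immunoproteasome, and the transporter TAP1/TAP2 that carries the cut peptides into the endoplasmic reticulum, where tapasin (*Tapbp*) loads them on class I molecules held by β2-microglobulin (*B2m*).

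RefSeq promoter windows of the rat assembly GRCr8, from 250 bases before to 50 bases after the annotated start, were found by symbol for 35 of the 44 genes. The ISRE core GAAANNGAA, read on both strands, was present in 20 of these 35 windows (57.1%), against 9.71% of all 33469 windows. The GAS motif TTCNNNGAA, which reads the same on both strands, was present in 8 of the 35 (22.9%), against 8.87% of all. A match is a run of letters and not a measured binding site. The windows that hold an ISRE core are shown for 6 peptide-processing or antiviral genes that are described by day, and for *Rsad2* and *Gbp2*, which differed between the lines in opposite directions. Each runs from 250 bases before the start to the first 10 bases from it, in the direction of transcription. Capitals mark ISRE cores and, at the start of the *Psmb8* window, a GAS.

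Ifi44: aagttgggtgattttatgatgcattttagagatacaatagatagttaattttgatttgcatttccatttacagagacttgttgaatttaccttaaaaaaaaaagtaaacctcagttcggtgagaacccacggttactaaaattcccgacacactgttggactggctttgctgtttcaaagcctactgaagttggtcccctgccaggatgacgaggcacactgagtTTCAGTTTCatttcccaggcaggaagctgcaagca
Psmb8: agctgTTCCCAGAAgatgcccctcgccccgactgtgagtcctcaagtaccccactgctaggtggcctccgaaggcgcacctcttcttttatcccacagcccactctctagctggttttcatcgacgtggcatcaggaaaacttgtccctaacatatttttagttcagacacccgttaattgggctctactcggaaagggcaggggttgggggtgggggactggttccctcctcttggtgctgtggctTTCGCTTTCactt
Tap1: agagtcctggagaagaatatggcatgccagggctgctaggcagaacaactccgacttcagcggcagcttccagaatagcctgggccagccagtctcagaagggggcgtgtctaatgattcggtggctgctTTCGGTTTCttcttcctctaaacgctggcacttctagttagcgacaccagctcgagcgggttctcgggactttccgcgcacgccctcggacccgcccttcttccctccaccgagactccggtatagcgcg
Tap2: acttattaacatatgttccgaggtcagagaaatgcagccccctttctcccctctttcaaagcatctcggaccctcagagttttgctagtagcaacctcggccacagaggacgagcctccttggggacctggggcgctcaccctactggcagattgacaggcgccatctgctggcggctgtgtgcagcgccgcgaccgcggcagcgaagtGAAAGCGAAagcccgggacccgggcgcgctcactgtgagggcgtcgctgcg
Tapbp: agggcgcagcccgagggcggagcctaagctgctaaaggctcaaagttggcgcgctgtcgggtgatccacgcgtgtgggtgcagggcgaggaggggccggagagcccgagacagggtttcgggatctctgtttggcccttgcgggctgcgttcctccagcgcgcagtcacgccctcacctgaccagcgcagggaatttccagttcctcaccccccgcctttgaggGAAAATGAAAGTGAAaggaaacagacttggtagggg
B2m: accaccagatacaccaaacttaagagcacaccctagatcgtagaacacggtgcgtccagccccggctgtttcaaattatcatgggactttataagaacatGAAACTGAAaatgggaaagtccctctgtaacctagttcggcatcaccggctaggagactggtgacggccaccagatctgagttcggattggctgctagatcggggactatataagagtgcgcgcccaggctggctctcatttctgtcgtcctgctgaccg
Rsad2: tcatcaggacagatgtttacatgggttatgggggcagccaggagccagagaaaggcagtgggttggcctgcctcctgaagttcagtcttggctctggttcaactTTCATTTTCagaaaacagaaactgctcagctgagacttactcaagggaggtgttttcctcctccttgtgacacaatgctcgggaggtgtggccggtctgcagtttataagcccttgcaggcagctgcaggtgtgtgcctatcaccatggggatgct
Gbp2: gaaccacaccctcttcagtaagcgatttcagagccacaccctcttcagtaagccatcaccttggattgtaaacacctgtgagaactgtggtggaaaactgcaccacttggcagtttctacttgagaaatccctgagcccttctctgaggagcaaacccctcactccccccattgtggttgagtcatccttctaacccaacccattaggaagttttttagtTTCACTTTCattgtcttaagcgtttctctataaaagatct

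The windows lie at chr2:243303831-243304090 (*Ifi44*, minus strand), chr20:4657022-4657281 (*Psmb8*, minus strand), chr20:4668534-4668793 (*Tap1*, minus strand), chr20:4652287-4652546 (*Tap2*, minus strand), chr20:4967868-4968127 (*Tapbp*, minus strand), chr3:129549080-129549339 (*B2m*, plus strand), chr6:48788111-48788370 (*Rsad2*, minus strand) and chr2:234005477-234005736 (*Gbp2*, plus strand). *Tap1* and *Psmb9* are transcribed away from each other, and their windows shared 44 bases. The ISRE core in the *Tap1* window, which begins at position -120 from the *Tap1* start, lay outside these shared bases, and the *Psmb9* window held no match. *Ifi44* had another match that begins at base 28 of the transcript. The matches of the other genes lay in the windows of *Psmb10* (3), *Psme2*, *Irf7*, *Isg20*, *Oas1a* (2), *Ifit3* (2), *Eif2ak2*, *Ifitm2*, *Ifitm3*, *Ifih1*, *Bst2* (2) and *Socs1* (3).

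Per array, 43.2% to 61.4% of the gene features stood well above background, and the number of arrays limits the precision. For each line, the d0, d2, d4 and d6 arrays with one replicate number sat on the same slide. The fit used throughout held the group means only, without this pairing, and the slide was a block only in alternatives. On each of these slides d0, d2, d4 and d6 held positions 1, 2, 3 and 4. Day and position on the slide therefore cannot be told apart. The scans of Cl19, of 3c3 and of primary SMC RNA fell on separate days, so that differences in level between the lines or against primary SMCs cannot be told apart from differences between scans. The slide of 3c3 replicate 3 gave negative controls of 28.3 to 44.5 (net signal), and the remaining slides gave 10.9 to 14.0. The array labelled Cl19 d2 replicate 1 lay nearer to the 3c3 arrays of d2 (root mean square difference 0.382 to 0.538) than to the other Cl19 arrays of d2 (0.876 and 0.917), and changes and counts on d2 of Cl19 are given with and without it.

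On balance the genes fell in Cl19 and rose in 3c3 over 6 days. In Cl19, 8 of the 37 tested genes rose and 18 fell from d0 to d6, whereas in 3c3 21 rose and 4 fell (limma, Benjamini-Hochberg adjusted p below 0.05 over all tested probes). Of all tested probes, 22.0% rose and 30.3% fell in Cl19, and 19.7% rose and 28.6% fell in 3c3. The genes had median log2 changes of -0.81 (Cl19) and 0.96 (3c3), against -0.20 and -0.21 over all tested probes. In total 8 genes were called in both lines with opposite signs (21.6% of the 37, against 1.93% of all tested probes), and each of them fell in Cl19 and rose in 3c3: *Psmb8*, *Psmb9*, *Psme1*, *Tap2*, *Tapbp*, *B2m*, *Ifi44* and *Ifi35*. With the slide as a fixed block, *Irf7* also passed in Cl19 (-0.57, adjusted p = 0.0243) and *Stat2* in 3c3 (0.65, adjusted p = 0.0158), in each case opposite to the change called in the other line. In bulk RNA, fewer cells that express a gene and less RNA of it per cell cannot be told apart. The change differed between the lines for 22 genes by the interaction test (17.4% of all tested probes), with the lower change in Cl19 for 20 of them and in 3c3 for *Mx2* and *Gbp2*. Called in both lines with the same direction were 6 higher genes (*Tap1*, *Ifi30*, *Irf3*, *Ifnar1*, *Bst2* and *Gbp2*, against 13.2% of all tested probes) and 4 lower genes (*Psmb10*, *Irf5*, *Ifitm1* and *Ifitm2*, against 20.4%). Over the time course, 30 genes changed in Cl19 (54.3% of all tested probes) and 27 in 3c3 (50%), 24 of them in both.

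**Figure D1:**
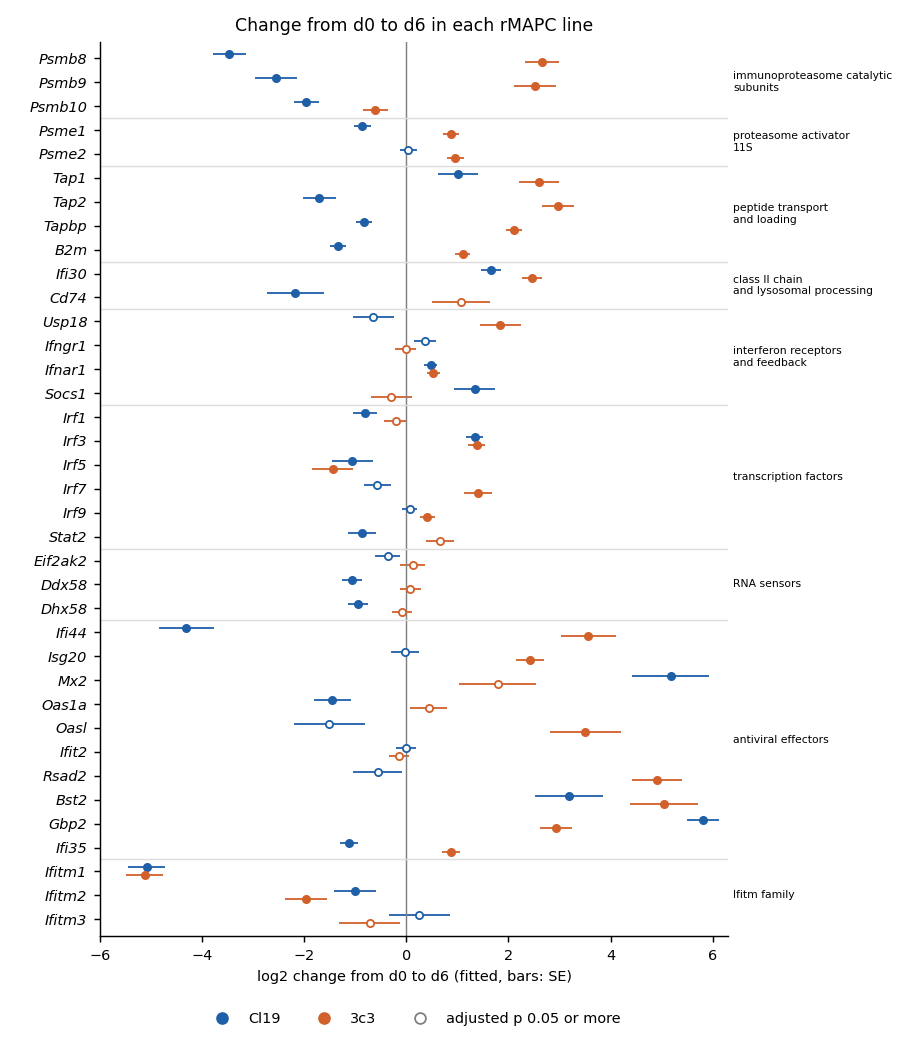
Fitted log2 change from d0 to d6 (horizontal axis) of the 37 tested genes, grouped by role, in Cl19 (blue) and 3c3 (orange). Bars are standard errors and open circles did not pass the adjusted p of 0.05; for 8 genes filled blue points lie left of 0 and filled orange points right of it.

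Of the catalytic subunits of the immunoproteasome, *Psmb8* and *Psmb9* fell in Cl19 and rose in 3c3, whereas *Psmb10* fell in both. In Cl19, *Psmb8* measured 8.10, 7.85 and 8.29 on d0, 7.73, 6.90 and 6.62 on d2, 3.84, 4.76 and 4.08 on d4 and 4.63, 4.50 and 4.70 on d6, where values are in the order of replicates 1 to 3. In 3c3, it measured 5.65, 5.95 and 5.95 on d0, 7.60, 7.01 and 7.91 on d2, 8.47, 7.46 and 8.67 on d4 and 8.79, 8.06 and 8.67 on d6. The lines exchanged places, since Cl19 had the higher level on every array of d0 and 3c3 on every array of d4 and d6. The d6 change was -3.47 ± 0.33 (SE, adjusted p = 3.99e-08) in Cl19, an 11.1-fold fall, and 2.66 ± 0.33 (SE, adjusted p = 1.99e-06) in 3c3, a 6.31-fold rise, and the difference between them was -6.13 ± 0.46 (SE, adjusted p = 3.73e-08). For *Psmb9*, the Cl19 levels were 9.88, 9.85 and 10.09 on d0, 9.41, 8.56 and 8.23 on d2, 5.70, 7.32 and 6.43 on d4 and 7.58, 7.26 and 7.31 on d6. The 3c3 levels were 7.53, 7.45 and 7.46 on d0, 9.41, 8.67 and 9.22 on d2, 10.11, 8.71 and 9.97 on d4 and 10.65, 9.27 and 10.08 on d6. The d0 and d6 arrays did not overlap in either line, with changes of -2.56 ± 0.41 (SE, adjusted p = 2.74e-05) and 2.52 ± 0.41 (SE, adjusted p = 4.63e-05). *Psmb10* in Cl19 measured 10.66, 10.90 and 10.73 on d0, 9.86, 10.19 and 9.75 on d2, 8.54, 9.41 and 8.68 on d4 and 8.73, 8.57 and 9.10 on d6. The 3c3 arrays gave 10.06, 10.39 and 10.16 on d0, 9.92, 9.95 and 9.77 on d2, 9.59, 8.74 and 9.29 on d4 and 10.08, 9.34 and 9.37 on d6, and 1 array of d6 overlapped with d0. Its changes were -1.96 ± 0.24 (SE, adjusted p = 1.31e-06) in Cl19 and -0.61 in 3c3 (adjusted p = 0.0453), and the latter call lay at the threshold and was lost for 16 of the 26 arrays left out in turn (adjusted p up to 0.162). The probes of *Psmb8*, *Psmb9*, *Tap1*, *Tap2* and *Tapbp* map to chromosome 20 of the array's assembly rn4, in the MHC region, at chr20:4787980-4788039, chr20:4806341-4806400, chr20:4792827-4793962, chr20:4770747-4770806 and chr20:5111712-5111882, whereas that of *Psmb10* maps to chr19:35777711-35777770.

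The subunits of the 11S activator, which opens the proteasome to peptides, followed in part. *Psme1* fell from 12.46 ± 0.09 (SD, n = 3) to 11.60 ± 0.25 in Cl19 and rose from 11.40 ± 0.04 to 12.28 ± 0.18 in 3c3. *Psme2* was 12.29 ± 0.08 and 12.33 ± 0.20 on d0 and d6 of Cl19, with a change of 0.04 ± 0.17 (SE, adjusted p = 0.863), and rose by 0.96 ± 0.17 (SE, adjusted p = 1.19e-04) in 3c3. The constitutive proteasome genes, a list of 17 that were all tested, had 1 gene that rose and 6 that fell in Cl19, and 0 that rose and 9 that fell in 3c3, with median changes of -0.28 and -0.42. The other 10 and 8 did not pass, and the share that fell among all tested probes was 30.3% in Cl19 and 28.6% in 3c3.

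Among the genes of peptide transport and loading, *Tap2*, *Tapbp* and *B2m* fell in Cl19 and rose in 3c3, and *Tap1* rose in both. *Tap2* in Cl19 measured 9.25, 9.29 and 9.16 on d0, 10.66, 9.10 and 8.85 on d2, 7.12, 7.71 and 7.56 on d4 and 7.84, 7.18 and 7.56 on d6. On the 3c3 arrays the levels were 8.23, 8.30 and 8.29 on d0, 10.83, 10.14 and 10.50 on d2, 10.84, 10.49 and 10.54 on d4 and 11.08, 11.48 and 11.19 on d6. All 3c3 arrays from d2 on lay above all 3c3 arrays of d0, whereas in Cl19 the fall came between d2 and d4. The d6 changes were -1.70 ± 0.32 (SE, adjusted p = 1.46e-04) and 2.97 ± 0.32 (SE, adjusted p = 3.73e-07). *Tap1*, its partner chain, measured 8.07, 7.70 and 8.07 on d0, 9.57, 7.87 and 8.02 on d2, 6.97, 8.72 and 8.35 on d4 and 9.01, 8.93 and 8.93 on d6 in Cl19. The levels of 3c3 were 7.46, 7.57 and 7.60 on d0, 9.40, 9.18 and 9.49 on d2, 10.02, 9.30 and 9.96 on d4 and 10.37, 9.78 and 10.29 on d6. The d6 arrays lay above the d0 arrays in both lines, with changes of 1.01 ± 0.39 (SE, adjusted p = 0.0356) in Cl19 and 2.60 ± 0.39 (SE, adjusted p = 1.93e-05) in 3c3, and the difference of -1.59 between the lines did not pass the test (adjusted p = 0.0518). The Cl19 call was lost when any 1 array of d0 or d6 of Cl19 was left out (adjusted p 0.0559 to 0.110). *Tapbp* fell from 10.22 ± 0.17 to 9.39 ± 0.07 in Cl19 and rose from 8.57 ± 0.21 to 10.68 ± 0.13 in 3c3, with most of the rise present on d2 (10.44 ± 0.32). On d2 and d4 it was 10.31 ± 0.12 and 9.57 ± 0.15 in Cl19, and on d4 10.35 ± 0.20 in 3c3. From d0 to d6, *B2m* stood in turn at 11.62 ± 0.05, 12.34 ± 0.26, 10.87 ± 0.23 and 10.28 ± 0.24 in Cl19, and at 11.81 ± 0.11, 12.70 ± 0.08, 12.60 ± 0.16 and 12.92 ± 0.08 in 3c3. It thus rose on d2 in Cl19 before it fell, and the d2 rise held without replicate 1 (0.58, adjusted p = 0.00829, against 0.72 and 0.00139 with it). The d6 changes of *B2m* were -1.34 ± 0.15 (SE, adjusted p = 3.72e-07) and 1.11 ± 0.15 (SE, adjusted p = 6.25e-06), and its 3 other probes gave -1.97 to -1.48 in Cl19 and 0.84 to 0.99 in 3c3.

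**Figure D2:**
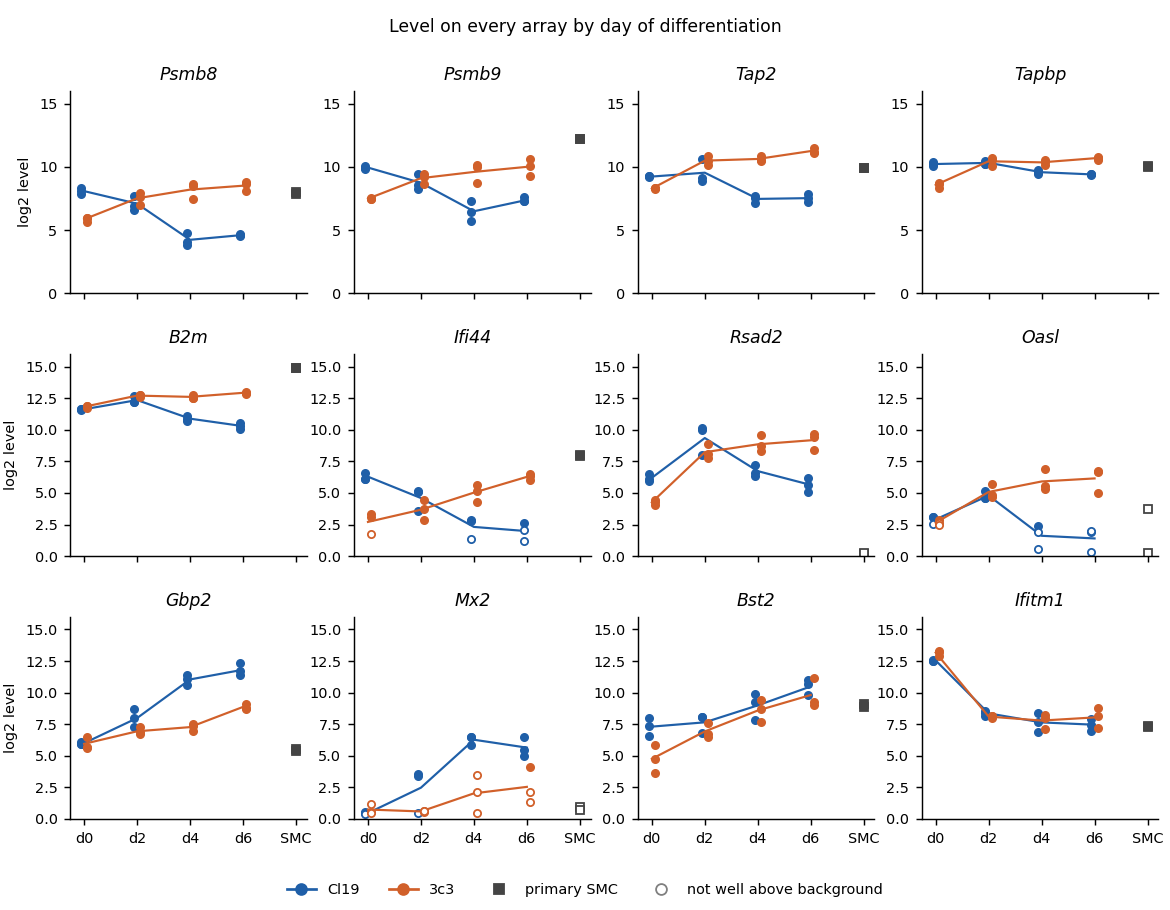
Log2 level (vertical axis) on every array by day for 12 genes, with Cl19 in blue, 3c3 in orange and the 2 primary SMC arrays as squares; lines join the means and open symbols were not well above background. *Psmb8*, *Psmb9*, *Tap2* and *Ifi44* cross between d0 and d6, whereas *Ifitm1* falls in both lines.

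Of the genes that act in lysosomal and class II presentation, *Ifi30*, a thiol reductase of the lysosome, rose in both lines and *Cd74*, the invariant chain of MHC class II, fell in Cl19. *Ifi30* measured 10.23, 10.52 and 10.37 on d0, 11.47, 11.75 and 11.51 on d2, 11.26, 11.58 and 11.11 on d4 and 11.47, 12.52 and 12.13 on d6 in Cl19. In 3c3 it measured 10.25, 10.48 and 10.27 on d0, 11.79, 11.72 and 11.52 on d2, 11.57, 11.21 and 11.65 on d4 and 12.74, 12.85 and 12.77 on d6. Every array from d2 on was above those of d0, and the d6 changes were 1.66 ± 0.20 (SE, adjusted p = 8.86e-07) and 2.45 ± 0.20 (SE, adjusted p = 1.14e-08). *Cd74* in Cl19 measured 3.02, 3.01 and 3.22 on d0, 6.09, 3.37 and 3.50 on d2, 0.26, 1.76 and 0.27 on d4 and 0.26, 1.53 and 0.95 on d6, and on d4 and d6 no array was well above background. The 3c3 arrays gave 4.21, 4.34 and 4.22 on d0, 6.26, 5.60 and 6.22 on d2, 5.99, 4.94 and 5.89 on d4 and 5.96, 4.57 and 5.46 on d6. The fall in Cl19 was at least 2.22-fold (adjusted p = 0.00295), where, as for all bounds here, a dim probe was set to the lowest signal that passed as well above background on its array. With that floor in the fit itself the *Cd74* call was lost (-1.11, adjusted p = 0.0748), as with normexp background correction (-0.17, adjusted p = 0.466). The change in 3c3 was 1.07 ± 0.56 (SE, adjusted p = 0.127). On d2 the Cl19 replicate 1 array stood at 6.09, like the 3c3 arrays of that day, and the Cl19 mean was 4.32 with it and 3.43 without it.

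Among the antiviral effectors, *Ifi44*, a protein of the cytoplasm with a role against RNA viruses, measured 6.13, 6.11 and 6.61 on d0, 3.56, 5.18 and 5.04 on d2, 1.34, 2.76 and 2.84 on d4 and 2.07, 2.63 and 1.23 on d6 in Cl19. On the 3c3 arrays the levels were 3.31, 3.09 and 1.71 on d0, 4.43, 2.86 and 3.72 on d2, 5.17, 4.28 and 5.63 on d4 and 6.31, 6.01 and 6.48 on d6. It fell by 4.31 log2 units in Cl19 (adjusted p = 1.32e-06) and rose by 3.56 in 3c3 (adjusted p = 1.89e-05), a difference between the lines of -7.87 ± 0.75 (SE, adjusted p = 6.98e-07), and another of its probes gave -4.10 and 2.69. The size of these changes is limited by background, since *Ifi44* was well above it on 1 of 3 arrays on d6 of Cl19 and 2 of 3 on d0 of 3c3. *Rsad2*, the radical SAM enzyme viperin, measured 5.98, 6.13 and 6.48 on d0, 7.99, 9.94 and 10.097 on d2, 6.57, 7.23 and 6.37 on d4 and 5.05, 5.65 and 6.19 on d6 in Cl19. The levels of 3c3 were 4.43, 4.03 and 4.30 on d0, 8.05, 7.73 and 8.90 on d2, 8.29, 8.68 and 9.56 on d4 and 9.43, 8.40 and 9.66 on d6. Both lines thus had higher levels on d2 than on d0, and on d6 the level was back in the range of d0 or below it in Cl19, with a change of -0.56 ± 0.48 (SE, adjusted p = 0.349). In 3c3 it stayed up, with a change of 4.91 ± 0.48 (SE, adjusted p = 1.31e-07) or 30.1-fold. On d2 the change in Cl19 was 3.15 with replicate 1 and 3.82 without it. A second, dimmer probe of *Rsad2* gave smaller d6 changes in 3c3 (2.54, adjusted p = 5.11e-04), and -0.94 in Cl19 (adjusted p = 0.143). *Oasl*, an oligoadenylate synthetase-like protein, measured 2.56, 3.09 and 3.07 on d0, 5.15, 4.62 and 4.59 on d2, 1.88, 2.36 and 0.59 on d4 and 0.33, 1.92 and 1.95 on d6 in Cl19. In 3c3 it measured 2.66, 2.84 and 2.43 on d0, 4.69, 4.80 and 5.74 on d2, 5.55, 5.32 and 6.85 on d4 and 6.74, 5.02 and 6.68 on d6. The d2 arrays were above the d0 arrays in both lines. The d2 change in Cl19 was 1.88 ± 0.69 (SE, adjusted p = 0.0580) with replicate 1 and 1.70 without it (adjusted p = 0.134). The d6 change was -1.51 ± 0.69 (SE, adjusted p = 0.0761) in Cl19 and 3.50 ± 0.69 (SE, adjusted p = 3.52e-04) in 3c3, with 1 of 3 arrays well above background on d6 of Cl19 and on d0 of 3c3.

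*Gbp2* and *Mx2*, GTPases of the dynamin superfamily, and *Bst2*, the membrane tether tetherin, had the highest rises in Cl19. *Gbp2* measured 5.97, 6.07 and 5.97 on d0, 7.30, 8.68 and 7.99 on d2, 10.64, 11.11 and 11.38 on d4 and 12.34, 11.70 and 11.39 on d6 in Cl19. The 3c3 arrays gave 6.52, 5.73 and 5.59 on d0, 7.25, 6.70 and 6.87 on d2, 7.55, 6.95 and 7.32 on d4 and 9.09, 8.80 and 8.72 on d6. It rose in both lines, 56.2-fold in Cl19 with a change of 5.81 ± 0.31 (SE, adjusted p = 4.23e-11) and 7.58-fold in 3c3 with a change of 2.92 ± 0.31 (SE, adjusted p = 3.97e-07), and the rise was larger in Cl19 by 2.89 ± 0.44 (SE, adjusted p = 1.14e-04). *Mx2* measured 0.52, 0.46 and 0.42 on d0, 0.48, 3.39 and 3.56 on d2, 5.87, 6.45 and 6.50 on d4 and 6.48, 4.99 and 5.46 on d6 in Cl19, and it was not well above background on d0 or on d2 replicate 1. On the 3c3 arrays the levels were 0.53, 0.51 and 1.21 on d0, 0.60, 0.55 and 0.64 on d2, 2.12, 0.47 and 3.50 on d4 and 4.09, 2.17 and 1.36 on d6, with 1 array of d6 well above background. The rise in Cl19 was at least 9.76-fold (adjusted p = 1.01e-05), and the 3c3 change was 1.79 ± 0.76 (SE, adjusted p = 0.0572). *Mx2* entered the tests only through d4 and d6 of Cl19, where it was high, so that its call is not independent of the filter. The difference between the lines of 3.38 ± 1.07 (SE, adjusted p = 0.0329) did not pass without the slide of 3c3 replicate 3 (adjusted p = 0.160) or with the 75th percentile scaling (adjusted p = 0.0565). *Bst2* measured 7.38, 6.57 and 7.97 on d0, 6.78, 8.08 and 8.09 on d2, 7.81, 9.28 and 9.88 on d4 and 10.65, 11.001 and 9.81 on d6 in Cl19. The levels of 3c3 were 3.65, 4.77 and 5.85 on d0, 6.71, 6.49 and 7.58 on d2, 8.67, 7.67 and 9.41 on d4 and 9.25, 9.01 and 11.17 on d6. No array of d6 overlapped with d0 in either line, with changes of 3.18 ± 0.67 (SE, adjusted p = 4.64e-04) and 5.05 ± 0.67 (SE, adjusted p = 4.65e-06).

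Of the other effectors, *Isg20*, an RNA exonuclease, rose in 3c3 by 2.43 ± 0.28 (SE, adjusted p = 8.03e-07) and was 11.70 ± 0.08 on d0 and 11.68 ± 0.38 on d6 of Cl19. *Ifi35* fell by 1.13 in Cl19 (adjusted p = 2.86e-05) and rose by 0.87 in 3c3 (adjusted p = 5.37e-04). *Oas1a*, an oligoadenylate synthetase, fell in Cl19 by 1.45 (adjusted p = 0.00226), and its change in 3c3 was 0.43 ± 0.36 (SE, adjusted p = 0.349). *Ifit2* was not well above background on any rMAPC array. Among the untested effectors, *Ifit3* was well above background on d2 replicates 2 and 3 of Cl19 (3.56 and 3.71) and on 3 of the 9 3c3 arrays after d0, and *Mx1* and *Ifit1* on no array.

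Among the transcription factors of the response, *Irf3*, which acts upstream of interferon production, measured 13.50, 13.07 and 13.34 on d0, 13.49, 13.79 and 14.02 on d2, 14.52, 14.43 and 14.66 on d4 and 14.75, 14.51 and 14.67 on d6 in Cl19. In 3c3 it measured 13.25, 12.82 and 13.31 on d0, 13.58, 13.26 and 13.73 on d2, 13.83, 13.79 and 14.12 on d4 and 14.45, 14.60 and 14.47 on d6. It rose in both lines, by 1.34 ± 0.17 (SE, adjusted p = 1.59e-06) and 1.38 ± 0.17 (SE, adjusted p = 1.82e-06), with a difference between the lines of -0.04 ± 0.24 (SE, adjusted p = 0.961). *Irf5* measured 5.73, 5.51 and 5.91 on d0, 6.12, 5.41 and 5.05 on d2, 4.31, 3.89 and 3.68 on d4 and 4.55, 4.75 and 4.67 on d6 in Cl19 and 6.53, 6.35 and 6.46 on d0, 6.15, 5.93 and 5.95 on d2, 5.84, 4.85 and 5.71 on d4 and 6.33, 3.97 and 4.70 on d6 in 3c3. Its falls of 1.06 (adjusted p = 0.0319) and 1.44 (adjusted p = 0.00555) were not stable, since the first was lost under several alternatives and the second without the slide of 3c3 replicate 3 (adjusted p = 0.0695) or without d6 replicate 2, the lowest array (adjusted p = 0.0507). *Irf7*, the inducible amplifier of type I interferon, rose in 3c3 by 1.41 ± 0.27 (SE, adjusted p = 2.41e-04), and in Cl19 its change was -0.57 ± 0.27 (SE, adjusted p = 0.0825). *Stat2* fell in Cl19 by 0.87 (adjusted p = 0.0111) with a 3c3 value of 0.65 ± 0.27 (SE, adjusted p = 0.0550). The Cl19 call was lost with the methods' t-test (adjusted p = 0.0965) and without Cl19 d6 replicate 2 (adjusted p = 0.0576) or d0 replicate 3 (adjusted p = 0.0752). *Irf1* fell in Cl19 by 0.81 (adjusted p = 0.00587), with a value of -0.21 in 3c3 (adjusted p = 0.485). *Irf9* rose in 3c3 by 0.41 ± 0.15 (SE, adjusted p = 0.0314), a call that was lost for 4 of the 26 arrays left out in turn (adjusted p up to 0.149). Its Cl19 value was 0.06 (adjusted p = 0.754). Neither *Irf1* nor *Irf9* passed the interaction test between the lines (adjusted p = 0.251 and 0.336). *Irf2* was well above background on 1 of 26 arrays.

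Among the RNA sensors, *Ddx58* (RIG-I) and *Dhx58* (LGP2) fell in Cl19 by 1.07 (adjusted p = 1.69e-04) and 0.95 (adjusted p = 3.08e-04), with values of 0.08 and -0.09 in 3c3 (adjusted p = 0.778 and 0.733). *Ddx58* was higher on d2 than on d0 in both lines (0.99 in Cl19 and 0.76 in 3c3, adjusted p = 0.00126 and 0.0116), and without replicate 1 of Cl19 the value was 0.99 (adjusted p = 0.00345). *Eif2ak2*, the kinase PKR, had values of -0.36 ± 0.24 (SE, adjusted p = 0.228) and 0.12 ± 0.24 (SE, adjusted p = 0.720), and *Ifih1* (MDA5) was well above background on no array. A second probe of *Eif2ak2* gave -0.70 in Cl19 (adjusted p = 0.0360) and -0.28 in 3c3 (adjusted p = 0.413). Whether it is called in Cl19 thus depends on the probe. Of the receptors, *Ifngr1* did not pass the test in either line, and *Ifnar1* rose in both lines, by 0.47 ± 0.12 (SE, adjusted p = 0.00294) for Cl19 and 0.53 ± 0.12 (SE, adjusted p = 0.00142) for 3c3. The second probe of *Ifnar1* gave -0.40 in Cl19 (adjusted p = 0.0425) and 0.09 in 3c3 (adjusted p = 0.670), so that its direction depends on the probe. *Usp18*, which removes ISG15 from proteins and limits receptor signaling, rose in 3c3 at least 2.33-fold (adjusted p = 8.43e-04) from levels not well above background on d0. That call was lost with normexp background correction (0.19, adjusted p = 0.0663), with the methods' t-test (adjusted p = 0.0921) and with the mean over its probes (0.77, adjusted p = 0.140). *Socs1*, an inhibitor of JAK kinases, rose in Cl19 by 1.34 ± 0.40 (SE, adjusted p = 0.00847) against -0.30 ± 0.40 (SE, adjusted p = 0.577) in 3c3. The difference of 1.64 between the lines did not pass the interaction test (adjusted p = 0.0532).

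The Ifitm genes code for membrane proteins that hinder viral entry, and *Ifitm1* and *Ifitm2* fell in both lines. *Ifitm1* measured 12.59, 12.53 and 12.51 on d0, 8.53, 8.14 and 8.40 on d2, 6.90, 8.35 and 7.67 on d4 and 6.997, 7.46 and 7.91 on d6 in Cl19. The 3c3 arrays gave 13.33, 13.23 and 12.93 on d0, 8.14, 7.999 and 8.17 on d2, 8.20, 7.13 and 8.03 on d4 and 8.77, 7.19 and 8.16 on d6. The d6 changes were -5.08 ± 0.36 (SE, adjusted p = 1.15e-09) in Cl19 and -5.13 ± 0.36 (SE, adjusted p = 1.92e-09) in 3c3, falls of 33.9-fold and 35.0-fold, and most of the fall was present on d2 in both. *Ifitm2* measured 11.77, 11.80 and 11.87 on d0, 10.99, 11.04 and 11.05 on d2, 9.55, 11.23 and 10.56 on d4 and 10.44, 11.08 and 10.88 on d6 in Cl19. On the 3c3 arrays the levels were 12.03, 11.70 and 11.88 on d0, 11.16, 10.72 and 10.85 on d2, 10.48, 9.14 and 9.78 on d4 and 10.99, 9.03 and 9.69 on d6. The changes were -1.01 ± 0.41 (SE, adjusted p = 0.0454) in Cl19 and -1.97 ± 0.41 (SE, adjusted p = 5.81e-04) in 3c3, and the one in Cl19 lay at the threshold and was lost for 20 of the 26 arrays left out in turn (adjusted p up to 0.150). *Ifitm3* was well above background on 2 of 24 rMAPC arrays.

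On d2, *Psmb8*, *Psmb9* and *Ifi35* were already called lower in Cl19 and higher in 3c3, where the call of *Ifi35* lay at the threshold (0.52, adjusted p = 0.0498). The Cl19 calls held without replicate 1 (adjusted p = 0.00627, 0.0127 and 4.45e-04), whereas that of *Ifi44*, lower by 1.69 with it (adjusted p = 0.0265), did not (-1.18, adjusted p = 0.133). In 3c3, 19 genes were higher and 1 was lower on d2 than on d0 (9.80% and 9.27% of all tested probes), and 20 were higher and 3 lower on d4 (14.8% and 22.2%). In Cl19, 7 were higher and 6 lower on d2 (11.2% and 11.5%), or 8 and 5 without replicate 1, and 6 were higher and 18 lower on d4 (20.2% and 27.1%). The median change of the genes went from 0.70 on d2 to 0.77 on d4 in 3c3, and from 0.15 on d2 (-0.00269 without replicate 1) to -0.65 on d4 in Cl19. On d0, 27 of the 37 genes had the higher mean in Cl19, with a median difference from 3c3 of 0.28, whereas on d6 28 had the higher mean in 3c3 and the median difference was -0.69. Over all tested probes these medians were -0.03 and 0.01. The levels of the lines are given as a description, since line and scan day cannot be told apart.

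Primary SMCs had high levels of part of the genes and low levels of others. Against Cl19 on d6, 23 genes were higher and 8 lower in primary SMCs (32.8% and 38.6% of all tested probes), and against 3c3 on d6 16 were higher and 10 lower (33.4% and 38.1%). Among those higher, *Ifit2* and *Ifitm3* entered the tests only through the primary SMC arrays, where they were high. Their calls are thus not independent of the filter. Scaling by the 75th percentile gave 24 higher and 8 lower against Cl19, and 18 higher and 9 lower against 3c3. That scaling also moved the median of all tested probes from -0.13 to 0.21 in each of the comparisons. *Ifitm3* measured 12.59 and 12.59 in primary SMCs, 2.52, 1.90 and 2.51 on d0, 1.83, 1.44 and 1.60 on d2, 1.78, 1.62 and 1.83 on d4 and 2.29, 3.69 and 1.73 on d6 in Cl19 and 1.92, 2.04 and 0.94 on d0, 1.54, 1.54 and 0.15 on d2, 1.79, 0.15 and 3.22 on d4 and 1.23, 1.37 and 0.15 on d6 in 3c3. Both primary SMC arrays lay far above every rMAPC array, at least 871-fold over 3c3 on d6. *Cd74* measured 9.46 and 9.53 in primary SMCs, at least 189-fold over Cl19 and 4.17 ± 0.63 (SE, adjusted p = 7.24e-06) log2 units over 3c3 on d6. *Irf5* measured 9.99 and 9.97, or 5.32 ± 0.45 (SE, adjusted p = 2.19e-09) and 4.98 ± 0.45 (SE, adjusted p = 5.69e-09) above the lines. All of the immunoproteasome subunits were higher than in Cl19, by 3.35 (*Psmb8*), 4.81 (*Psmb9*) and 3.73 (*Psmb10*). Against 3c3, *Psmb9* and *Psmb10* were higher by 2.20 and 2.94, and *Psmb8* differed by -0.55 ± 0.36 (SE, adjusted p = 0.184).

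Other genes were low in primary SMCs. *Rsad2* measured 0.20 and 0.22 on arrays where it was not well above background, at least 3.63-fold lower than in Cl19 and 42.0-fold lower than in 3c3 on d6. With normexp background correction the difference of *Rsad2* from Cl19 did not pass (-0.87, adjusted p = 0.0770). *Gbp2* measured 5.40 and 5.55, lower than on d6 by 80.7-fold against Cl19 (adjusted p = 4.15e-12) and 10.5-fold against 3c3 (adjusted p = 4.45e-08). *Ifit2* passed as well above background in primary SMCs (5.57 and 5.11 on the 2 arrays) and on none of the 24 rMAPC arrays, at least 10.6-fold over Cl19 and 5.72-fold over 3c3 on d6. The smooth muscle marker list, with 9 genes on the array, was well above background for all 9 in primary SMCs. The summed intensity of these 9 markers was 110372 to 114232 in Cl19 on d6, 39273 to 70777 in 3c3 on d6 and 196313 to 198582 in primary SMCs. That of 5 progenitor markers was 2513 to 5043, 13699 to 15498 and 1151 to 1169 in the same order. The part of these differences in the levels of the genes was not tested. Leukocyte markers are given below.

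**Figure D3:**
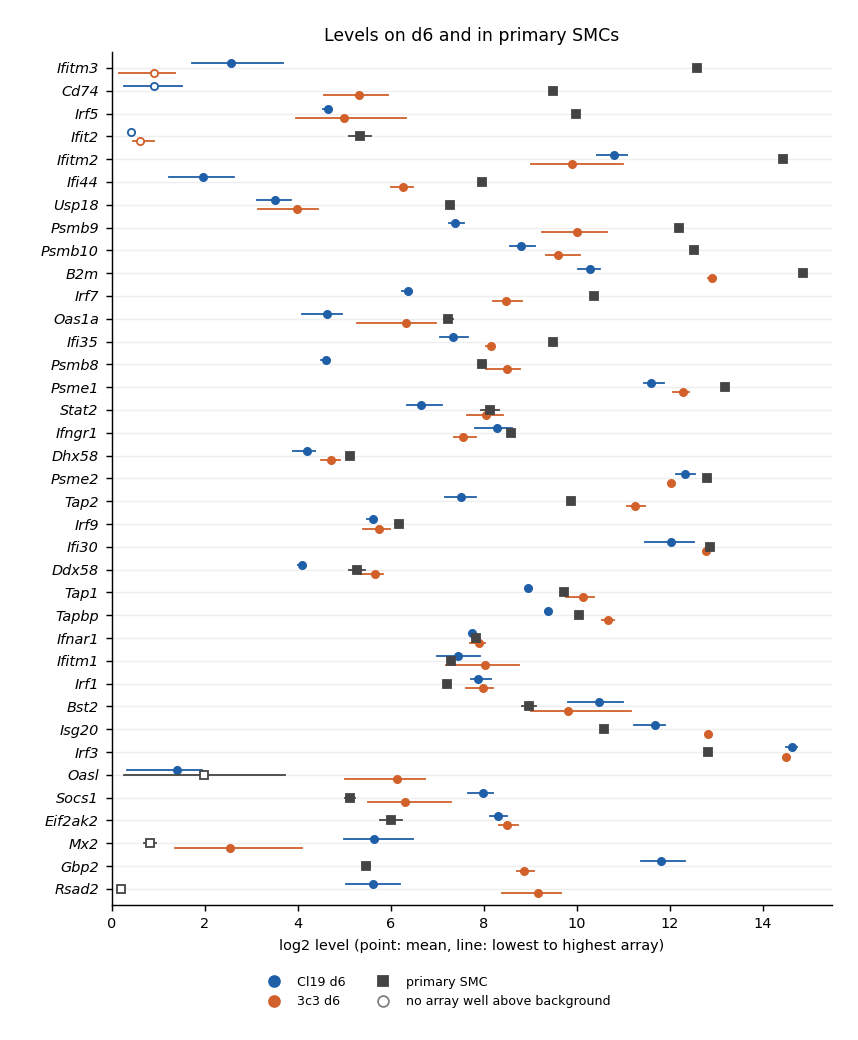
Log2 level (horizontal axis) of the 37 tested genes on d6 of Cl19 (blue) and 3c3 (orange) and in primary SMCs (grey squares), ordered by the mean difference of primary SMCs from both lines. Points are means, lines run from the lowest to the highest array and open symbols had no array well above background; *Ifitm3* and *Cd74* stand at the top and *Gbp2* and *Rsad2* at the bottom.

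Genes of the same pathway outside the list were followed in lists written with earlier results known. The counts below stand beside shares over all tested probes of 22.0% higher and 30.3% lower in Cl19, and 19.7% and 28.6% in 3c3. Among 20 tested probes of MHC class I and related genes, 15 were higher and 1 was lower on d6 in 3c3 (median 1.42), and 1 was higher and 6 lower in Cl19 (median -0.33). The largest changes were those of *Fcgrt*, the neonatal Fc receptor (7.40 in Cl19 and 7.20 in 3c3), *RT1-N3* (0.48 and 4.94), *Hfe* (-4.44 and -1.27), *RT1-T24-1* (0.30 and 3.31), *RT1-A3* (0.24 and 2.80) and *RT1-CE12* (-1.46 and 1.75). The RT1 genes are near-identical copies, so that 1 probe may read several of them and these values are not independent. Of 6 tested probes of MHC class II and its loading, 1 rose and 2 fell in Cl19, and 3 rose and 2 fell in 3c3. Of 11 other genes of peptide loading, 7 fell in Cl19 and 5 in 3c3 and none rose, among them *Thop1*, which destroys peptides (-1.19 and -1.84), and the chaperone *Canx* (-1.15 and -1.03).

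Of 50 tested probes of interferon-stimulated genes outside the list, 27 were higher and 6 lower on d6 in 3c3, and 11 were higher and 23 lower in Cl19. Their medians were 1.07 and -0.62, on the same sides as the medians of the 37 genes. Both differences passed the test for *Vcam1* (-4.69 in Cl19 and 1.69 in 3c3), *Lgals9* (-1.04 and 4.30) and *Ifi27l* (2.56 and 4.07). The 3c3 value alone passed for *Irgm* (0.25 and 3.70), and the Cl19 value alone for *Parp14* (-3.70 and 0.85) and *Herc6* (-3.68 and 0.58). Of 26 probes of receptors and JAK-STAT signaling, 9 rose and 6 fell in Cl19, and 12 rose and 4 fell in 3c3. Of 14 probes of nucleic acid sensing, 6 fell and 1 rose in Cl19 and 3 fell and 1 rose in 3c3, led by *Tlr3* (-4.08 and 0.29). Of the 16 interferon genes listed as ligands, 5 had a probe and 1 of them, *Ifna4*, was tested, with changes of -0.77 and -0.23 that did not pass (adjusted p = 0.128 and 0.687).

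The genes whose 8 rMAPC group means were most like the median profile of *Psmb8*, *Psmb9*, *Psmb10*, *Tap1* and *Tap2* were *Nmi* (Pearson r = 0.98), *Slc38a10* (0.96), *Traf3ip2* (0.95), *Ppic* (0.95) and *C1r* (0.95). Of the genes that define the profile, *Psmb9* (0.997), *Psmb8* (0.99) and *Tap2* (0.91) lay near it, and *Tap1* (0.59) and *Psmb10* (0.48) less so. Of the listed genes outside these 5, *Ifi35* (0.93) and *Ifi44* (0.93) were nearest and *Mx2* (-0.66) and *Socs1* (-0.61) farthest. The 8 means share arrays, slides and normalization, and the r is a description.

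Markers of leukocytes, which express many of these genes strongly, were followed beside the genes. Of 8 tested markers, 3 rose and 1 fell on d6 in 3c3 (median 0.41), and 1 rose and 3 fell in Cl19 (median -0.03). The summed intensity of 17 leukocyte markers was 540 to 608 on d0 of 3c3, 394 to 520 on d2, 587 to 833 on d4 and 1024 to 2244 on d6, and in Cl19 it was 503 to 645 on d0 and 264 to 334 on d6. On d6 of 3c3, 11 of the 17 were not well above background on any array, including *Ptprc* (CD45), *Cd3e*, *Itgam* and *Cd163*, and the markers that rose were *Csf1r* (from 3.93 to 10.17, the brightest of the 17 on that day), *Lyz2* (from 0.90 to 4.96) and *Fcgr3* (from 4.91 to 6.90). *Nkg7* fell from 8.09 to 5.33. In primary SMCs the sum was 1150 to 1208, with *Ptprc* well above background on both arrays. The part of such cells in the changes on d6 and in the levels of primary SMCs was not tested.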

How the data were processed

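Gene expression was measured on 26 one-colour Agilent rat arrays in 9 groups. The authors deposited the scanner output of each array, made with Agilent Feature Extraction 10.1.1.1 per the submitters' processing notes, with a background-subtracted Cy3 intensity per feature. They also deposited a log2 table of the same signals, not normalized between arrays, which was used as an alternative. Processed intensities of 43379 gene features per array were set on the log2 scale and quantile-normalized, outlier features were left out and features of a probe were averaged (41012 probes). The 24442 probes that passed as well above background throughout at least 1 group entered 1 limma fit (version 3.58.1, R 4.3.3) of 9 group means with eBayes moderation, and p-values were adjusted by Benjamini-Hochberg over all tested probes with a threshold of 0.05. The change over time was tested by an F-test per line, and the difference of d6 changes as an interaction. Scripts were tested on simulated data. Promoters were searched with Python 3.11.15.

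The members and lists were chosen with earlier results of these data known. By rule every member was named, and array-by-array values were given for the 10 members with the largest d6 change averaged over the lines among those called in either line, for at most 6 with the largest difference between the lines and for the 5 with the largest difference of primary SMCs from both lines. At most 6 genes per other list were named, by size of d6 change. Same-numbered arrays of a line shared a slide, and their deviations from the group means correlated above 0.1 in 18 of 18 pairs in 3c3 and 16 of 18 in Cl19. Alternatives were 37 other settings, 26 of which left out 1 array.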

Additional observations from a re-analysis of the deposited data

Results flagged for a closer look

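The d6 change differed between the lines for 22 genes by the interaction test in limma. As Cl19 minus 3c3 on the log2 scale, the difference was -7.87 for *Ifi44*, -6.13 for *Psmb8*, -5.08 for *Psmb9*, -1.36 for *Psmb10*, -1.74 for *Psme1* and -0.91 for *Psme2*. It was -4.68 for *Tap2*, -2.95 for *Tapbp*, -2.44 for *B2m* and -3.24 for *Cd74*. Among regulators and sensors it was -1.97 for *Irf7*, -1.53 for *Stat2*, -2.49 for *Usp18*, -1.14 for *Ddx58* and -0.86 for *Dhx58*. Among effectors it was -2.45 for *Isg20*, -1.89 for *Oas1a*, -5.01 for *Oasl*, -5.47 for *Rsad2* and -1.999 for *Ifi35*, and it was positive for *Mx2* (3.38) and *Gbp2* (2.89). *Mx2*, *Cd74* and *Usp18* each had a group with no array well above background, so that their fitted differences are not measured sizes. The difference of *Dhx58* was lost with 75th percentile scaling (adjusted p = 0.0700), with normexp background correction (adjusted p = 0.174) and for 7 of 26 arrays left out in turn, and its second probe gave -0.30 (adjusted p = 0.624). The second probe of *Ddx58* gave -0.82 (adjusted p = 0.127), and that of *Rsad2* gave -3.48 (adjusted p = 0.00226). The *Ddx58* difference was lost with normexp (adjusted p = 0.0508) and without the slide of 3c3 replicate 3 (adjusted p = 0.0623). Without that slide, *Stat2* (adjusted p = 0.0729), *Oas1a* (0.0511), *Cd74* (0.0505) and *Mx2* (0.160) also did not pass. With normexp, *Usp18* (adjusted p = 0.130) and *Cd74* (0.116) also did not pass.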

How the results depend on the processing

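The 8 genes called with opposite signs in the lines were called with the same signs in 37 of 37 alternatives. The count of genes lower on d6 in 3c3 was 4, and it was 1 with the methods' t-test after Benjamini-Hochberg adjustment, 2 without the slide of 3c3 replicate 3 and 2 to 4 with 1 array left out. The authors' log2 table equals the log2 scanner signal with no normalization between arrays. In it, 12 genes were higher and 20 lower in primary SMCs than in Cl19 on d6, against 23 and 8, and 7 were higher and 26 lower than in 3c3, against 16 and 10. In this table the median of all tested probes was -2.17 and -2.09 in these comparisons, and the median of the members was -0.96 and -1.80. With 75th percentile scaling the members' medians were 1.41 and 0.49, and with normexp background correction 0.63 and 0.02. The medians of all tested probes were 0.21 and 0.21 with 75th percentile scaling and -0.04 and -0.04 with normexp. They were -0.13 and -0.13 under the settings used throughout. With the slide (the replicate number) as a block, 32 genes changed over time in Cl19 and 30 in 3c3, 9 rose and 19 fell on d6 in Cl19, 22 rose and 4 fell in 3c3, and 24 differed between the lines. With 1 array left out, the counts were 26 to 31 over time in Cl19 and 25 to 29 in 3c3, 7 to 8 higher and 15 to 18 lower on d6 in Cl19, 20 to 23 higher in 3c3, and 20 to 24 for the difference between the lines. Against primary SMCs they were 21 to 24 higher and 7 to 8 lower for Cl19, and 14 to 17 higher and 8 to 12 lower for 3c3. The cause of the shifts between settings was not tested. Signals near background limit *Ifi44*, *Usp18*, *Mx2*, *Oasl*, *Cd74*, *Ifitm3* and *Ifit2*, whose low groups give bounds or imprecise sizes.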
